A study of Homo sapiens with 5 samples.

Results

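Broad replication origins were defined here as 3-hour ini-seq 2 intervals of 3000 bp or more, and 746 of the 23905 called origins (3.12%) met this rule. They occupied 3.36 of the 23.5 Mb called as origin, which is 14.3% of the origin sequence. The rule was chosen by the called length, so length and efficiency, which come from the same contrast, are given as descriptions only. All libraries came from EJ30, a human bladder carcinoma cell line. In ini-seq 2, nuclei of late G1 cells, synchronised with mimosine, began replication in vitro in a cytosolic extract of HeLa cells with bromo-dUTP, for 3 hours or for 15 minutes. DNA copied in the reaction carries 1 heavy strand (HL), sinks deeper in a caesium sulfate gradient than DNA not yet copied (LL), and was sequenced apart from it. The efficiency of an origin is HL/(HL+LL). The SNS-seq lists hold peaks of short nascent strands isolated from EJ30 cells, in a 0.5-2 kb and a 2-4 kb size fraction. Each condition is 1 list of intervals, with 2 biological replicates pooled in the 3-hour list, so no spread between replicates could be computed and no test was made. Intervals in brackets are exact 95% Clopper-Pearson intervals, which cover counting error only. Reads per interval are not listed, and the depth of any single origin is therefore unknown.

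Replication origins are sites where the replicative helicase, loaded onto DNA in G1, is activated and a pair of forks is set up. In human cells they are frequent in open, GC-rich chromatin and at CpG islands, stretches of unmethylated CpG-rich DNA over many promoters. CpG dinucleotides are otherwise scarce in the genome because methylated cytosine is lost by deamination. Nascent strands and density-shifted DNA mark the same event by different routes, the first through strand length and RNA priming, the second through incorporation of a heavy nucleotide.

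The CpG ratio of the broad origins, defined further on, varied from 0.160 to 0.988. The stretches shown here were chosen by efficiency, length, absence of a 15-minute call and low GC content, not by this ratio. Stretches of 150 bases of the hg38 plus strand, taken outside every annotated exon and as near as possible to the centre of the origin, are shown from the 2 origins of highest efficiency, at KLF13 (chr15:31326685-31326834) and FOXC1 (chr6:1609765-1609914), from the longest origin (chr4:1755025-1755174) and from the longest origin without a 15-minute call, in JAG2 (chr14:105149925-105150074). Capitals mark CpG dinucleotides.
KLF13: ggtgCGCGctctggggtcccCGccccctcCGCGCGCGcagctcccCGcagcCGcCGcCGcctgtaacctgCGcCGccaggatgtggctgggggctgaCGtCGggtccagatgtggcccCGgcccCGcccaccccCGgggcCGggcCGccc
FOXC1: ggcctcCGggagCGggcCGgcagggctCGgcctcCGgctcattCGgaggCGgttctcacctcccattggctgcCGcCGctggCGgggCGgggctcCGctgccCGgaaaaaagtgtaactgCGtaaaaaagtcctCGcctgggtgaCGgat
Longest origin: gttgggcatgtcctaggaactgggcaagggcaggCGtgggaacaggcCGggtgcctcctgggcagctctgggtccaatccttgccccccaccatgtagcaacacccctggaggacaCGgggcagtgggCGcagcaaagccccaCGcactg
JAG2: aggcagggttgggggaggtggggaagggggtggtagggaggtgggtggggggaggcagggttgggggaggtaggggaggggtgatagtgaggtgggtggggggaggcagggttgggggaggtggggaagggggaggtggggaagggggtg

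The KLF13 stretch held 20 CpG dinucleotides and the FOXC1 stretch 16, against 5 in the longest origin and 0 in JAG2. The GC content of these stretches was 82.0%, 68.7%, 66.7% and 71.3%, so the CpG-poor ones were GC-rich as well. The JAG2 stretch was made of short G-rich units in tandem.

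A further 3 origins were the only broad origins with a GC content under 50%. They are shown because they were made almost wholly of pyrimidines or of purines on the plus strand. Capitals mark the bases that break the tract: purines in a pyrimidine tract, pyrimidines in a purine tract. The stretches lie in an intron of ANKDD1A (chr15:64953425-64953574) and at chr19:23880475-23880624 and chr19:23467575-23467724, where no gene is annotated.
ANKDD1A intron: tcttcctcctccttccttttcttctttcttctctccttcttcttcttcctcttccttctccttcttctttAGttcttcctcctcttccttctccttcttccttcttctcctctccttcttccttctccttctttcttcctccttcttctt
Chromosome 19, first origin: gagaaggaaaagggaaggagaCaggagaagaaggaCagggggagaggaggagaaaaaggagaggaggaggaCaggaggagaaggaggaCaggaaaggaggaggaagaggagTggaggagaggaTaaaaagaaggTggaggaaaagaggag
Chromosome 19, second origin: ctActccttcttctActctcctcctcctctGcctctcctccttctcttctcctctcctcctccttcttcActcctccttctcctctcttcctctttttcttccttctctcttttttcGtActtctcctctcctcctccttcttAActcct

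Over its whole length the ANKDD1A origin (chr15:64952001-64955000) was 97.0% pyrimidine, with a longest unbroken run of 163 bases. The first chromosome 19 origin (chr19:23878601-23882500) was 95.2% purine and the second (chr19:23465501-23469800) 95.6% pyrimidine. Their efficiencies were 0.949, 0.854 and 0.881. The ANKDD1A origin and chr19:23878601-23882500 were the only broad origins without an SNS-seq peak of either fraction. The second chromosome 19 origin overlapped 4 peaks of the 2-4 kb fraction and 0 of the 0.5-2 kb fraction, and was the only one of the 3 with a 15-minute origin, which covered 9.30% of it. Words of 12 bases that recur within 200 bp made up 88.7% of the ANKDD1A origin, 53.5% of the first and 64.3% of the second chromosome 19 origin, against a median of 2.43% over all broad origins. The part of these repeats in the missing peaks was not tested. The fourth broad origin under 60% GC was the HOXA5 origin described further on, at 59.4%.

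Called lengths ran from 3000 to 18200 bp with a median of 3900 bp. The numbers fell steeply with length: 385 origins measured 3000 to 3900 bp, 176 measured 4000 to 4900 bp, 164 measured from 5000 bp to under 10 kb and 21 were longer. Efficiencies ran from 0.8, the limit of the caller, to 0.991, with a mean of 0.855 ± 0.0404 (SD across origins, n = 746). When all 3-hour origins were split into 3 classes of equal size at efficiencies of 0.842 and 0.907, 101 broad origins (13.5%) were in the high class, which holds 33.3% of all origins. The low class held 345 (46.2%), against 33.4% of all origins. The 68 origins of exactly 3000 bp had a mean efficiency of 0.867 ± 0.0451 and the 63 of exactly 2900 bp, just outside the rule, 0.863 ± 0.0462. Of these, 69.1% at 3000 bp and 55.6% at 2900 bp overlapped a 15-minute origin, with overlapping intervals [56.7 to 79.8% and 42.5 to 68.1%].

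CpG content varied widely among the broad origins. An origin was called CpG island-like when, over its whole length, GC exceeded 50% and the number of CpG dinucleotides exceeded 0.6 of that expected from its C and G content (the CpG ratio). By this criterion 211 broad origins (28.3%) [25.1 to 31.7%] were island-like, against 53.7% of all 3-hour origins and 54.3% of the 1336 origins of 2000 to 2900 bp. The 211 had a median length of 3500 bp, a median efficiency of 0.904 and a mean CpG ratio of 0.732. The other 535 had a median length of 4100 bp, a median efficiency of 0.833 and a mean CpG ratio of 0.402. Their mean GC contents differed far less, at 68.5% and 66.2%. Of the 101 broad origins in the high efficiency class, 97 met the criterion. The remaining 4, named after their values were seen, were the ANKDD1A origin and origins in SHANK1, DGKQ and ULK1 with CpG ratios of 0.522, 0.563 and 0.547.

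**Figure D1:**
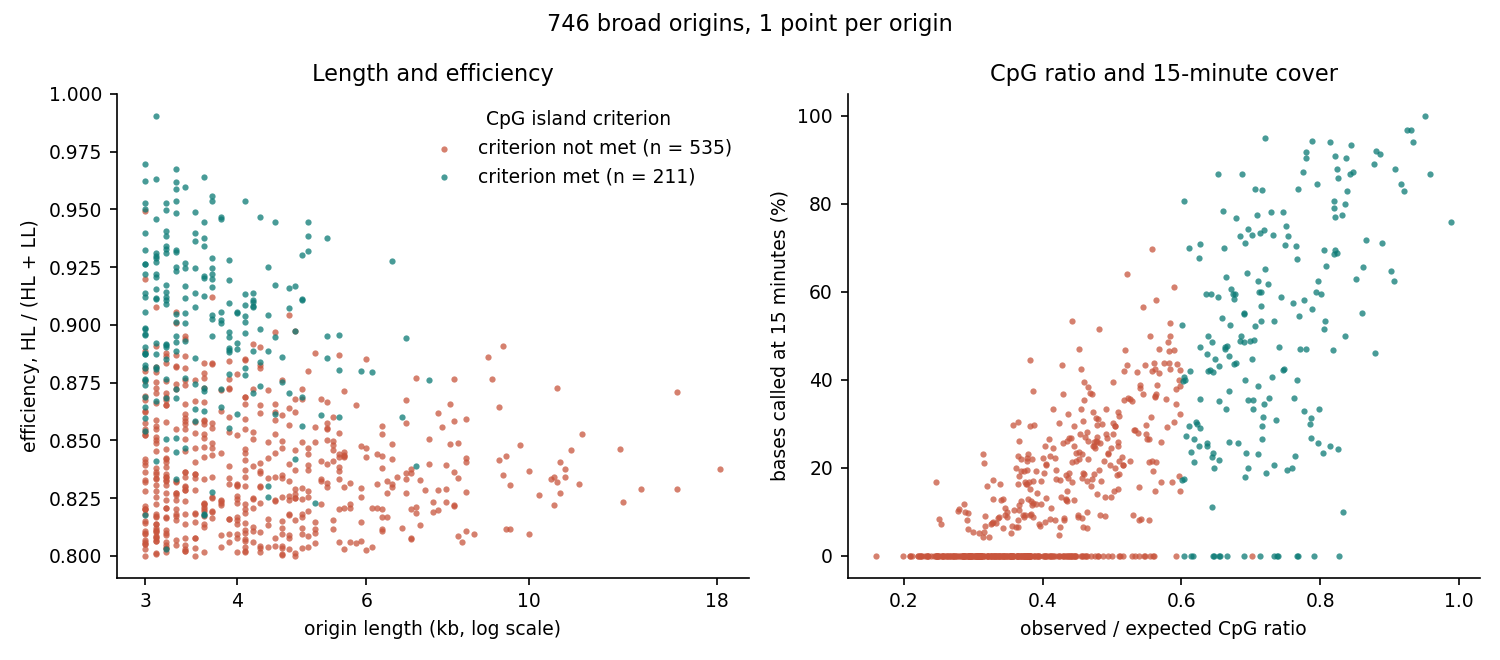
Each point is 1 of the 746 broad origins, coloured by whether it met the CpG island criterion. Left, length in kb on a log axis against efficiency; the 10 longest origins have efficiencies of 0.823 to 0.871, and the point at 0.949 that did not meet the criterion is the ANKDD1A tract. Right, observed/expected CpG ratio against the percentage of bases called after 15 minutes; origins below a ratio of 0.6 lie mostly under 40% cover.

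Over the 746 origins, which share the same libraries and caller, Spearman's rho was 0.79 between the CpG ratio and efficiency, 0.68 between GC content and efficiency, and -0.20 between length and efficiency. The rho between the CpG ratio and 15-minute cover was 0.76. These are descriptions across origins, which are not independent replicates. The criterion was also applied in windows of 200 bp moved by 100 bp, and 74 broad origins (9.92%) held no stretch of such windows that met it. The longest stretch had a median of 2000 bp in origins that met the criterion and 500 bp in those that did not. G-quadruplex motifs, 4 runs of at least 3 guanines with loops of 1 to 7 bases on either strand, were present in 743 of 746 broad origins (99.6%) against 71.0% of all 3-hour origins, at a mean of 2.25 per kb against 2.43 in origins of 2000 to 2900 bp.

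The length bands from 1000 bp upward were then set side by side on measures other than length. Those counted over the called interval, the CpG island criterion among them, can still change with its length. Of the 535 broad origins that did not meet the criterion over their whole length, 294 held 2 or more stretches of 200 bp windows that met it. The share that met the CpG island criterion was 4603 of 6576 at 1000 to 1900 bp, 54.3% at 2000 to 2900 bp, 38.2% at 3000 to 3900 bp, 26.1% at 4000 to 4900 bp and 11.0% from 5000 bp to under 10 kb. None of the 21 origins of 10000 bp or more met it, which allows a share of up to 16.1%. Proximity to a chromosome end ran the other way, from 27.8% within 5 Mb at 1000 to 1900 bp to 59.5%, 69.3% and 89.6% in the successive bands above 3000 bp. All 21 origins of the longest band lay within 5 Mb of an end. The share with a coding gene start changed less, at 48.3% for 1000 to 1900 bp, 47.8%, 44.3% and 39.6% in the first 3 broad bands and 52.4% [29.8 to 74.3%] in the longest.

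**Figure D2:**
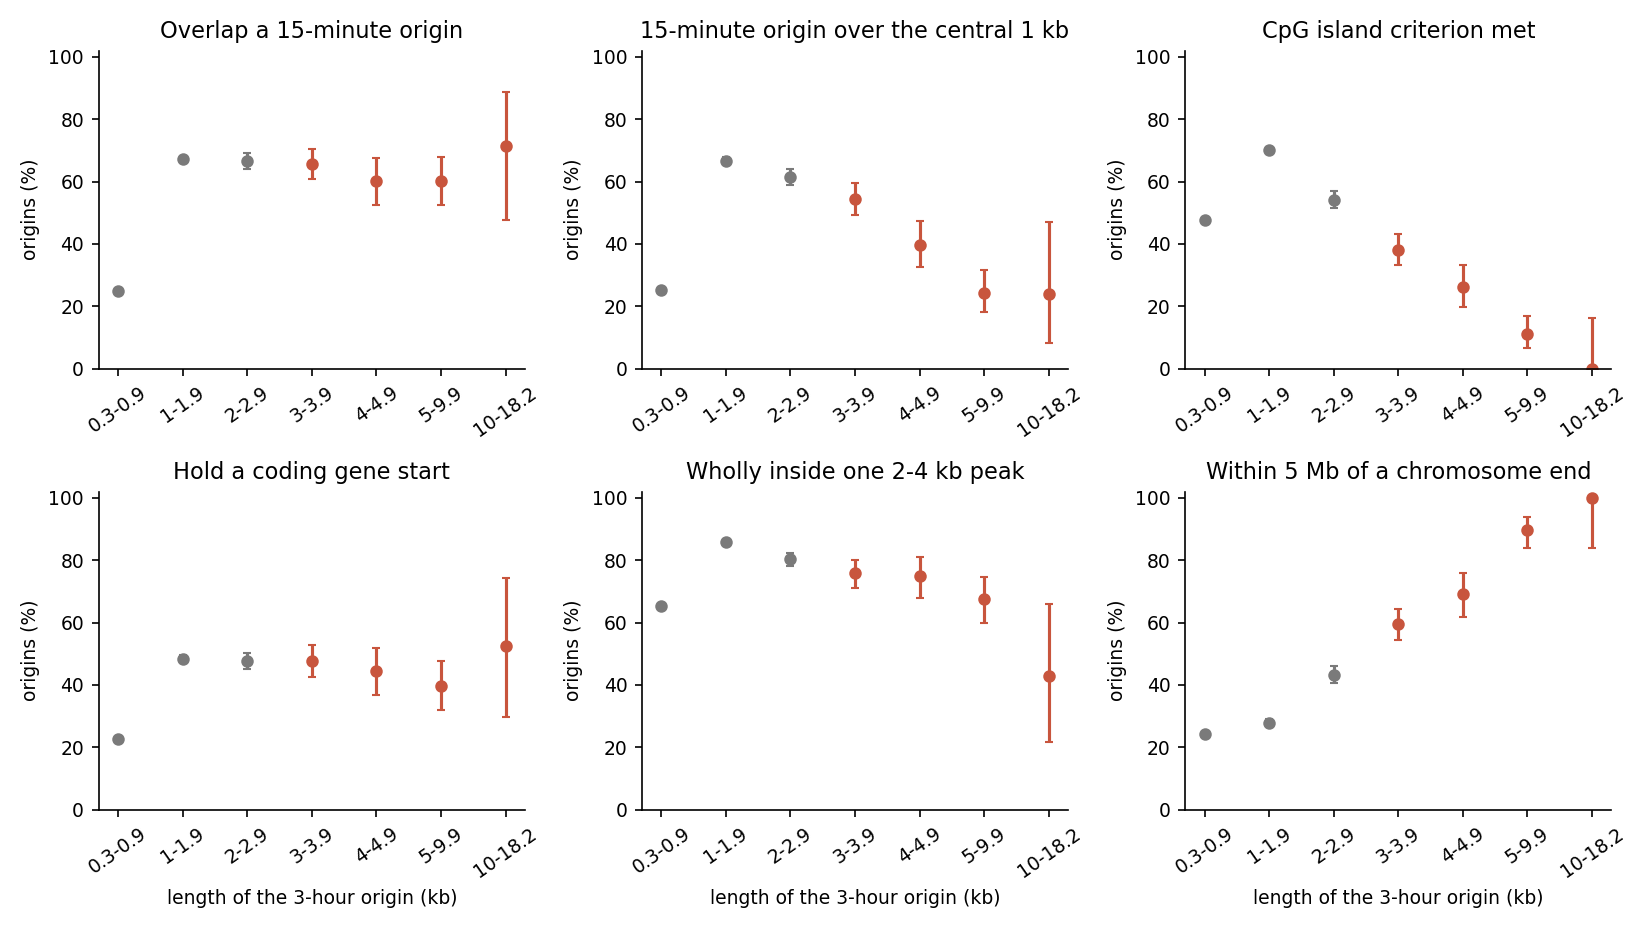
Share of 3-hour origins in 7 length bands with each of 6 features, with exact 95% binomial intervals; grey points are below and red points above the 3 kb limit. From 1 kb upward the CpG island share falls to 0 and the share near a chromosome end rises to 100%. Overlap with a 15-minute origin stays between 60.2% and 71.4% there. The shortest band is not part of these statements.

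The 15-minute list shows which parts of a broad origin already passed the limits of the caller shortly after the start of the reaction. The paper reports that sites called after the long reaction were already enriched in HL reads after the short one, with weaker loss of LL reads. The paper also gives fewer mapped reads for the short reaction. A part without a 15-minute call missed these limits and was not shown to be unreplicated. The effect of read depth on these calls was not tested. Of the 746 broad origins, 473 (63.4%) [59.8 to 66.9%] overlapped a 15-minute origin, against 40.1% of all 3-hour origins and 66.8% [64.2 to 69.3%] of those of 2000 to 2900 bp. There were 380 with 1 such origin, 83 with 2 and 10 with 3, so 93 (12.5%) held at least 2, against 0.699% of all 3-hour origins and 3.82% of those of 2000 to 2900 bp. Longer intervals have room for more calls, and the caller joined windows up to 500 bp apart, so this contrast follows in part from the length rule. Broad origins held a mean of 0.188 early calls per kb, and 0.402% had 2 or more over their central 1000 bp. Both values describe the broad origins only, so they do not show denser early calls than in shorter origins. In all, 576 of the 10181 15-minute origins lay over broad origins, with a median length of 1000 bp. Only 34 of the 15-minute origins were 3000 bp or longer, and 29 of these overlapped a broad origin.

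The cover by early calls ranged from 0 to 100% of a broad origin. On average 22.8% of the bases of a broad origin were called after 15 minutes, against 35.2% in origins of 2000 to 2900 bp. The central 1000 bp was touched in 325 broad origins (43.6%) [39.97 to 47.2%], against 61.5% of origins of 2000 to 2900 bp and 39.3% of all. Within the CpG classes the cover differed less between lengths. Among origins that met the criterion it averaged 50.3 ± 26.5% in broad and 54.8 ± 26.8% in 2000 to 2900 bp origins (SD across 211 and 725 origins). Among those that did not, it averaged 12.02 ± 14.8% and 11.97 ± 18.1% (SD across 535 and 611 origins). A 15-minute origin was present in 91.9% of the broad origins that met the criterion and in 52.1% of those that did not.

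The called and uncalled parts of the same origin were compared in the 465 broad origins where each part measured at least 300 bp. The part called after 15 minutes had a mean GC content of 73.5% and the rest 64.1%, with the early part higher in 463 of 465 origins. The paper reports that HL coverage rises with GC content in both reactions. The part of this rise in the GC difference was not tested. The CpG ratio averaged 0.748 in the early part and 0.433 in the rest, and was higher in the early part of 442 origins. Cover by 0.5-2 kb SNS-seq peaks averaged 95.4% in the early part and 78.0% in the rest, higher in the early part of 371 origins. The differences in GC and in CpG ratio were of similar size in origins of 2000 to 2900 bp, at 10.7 percentage points and 0.287 against 9.37 points and 0.315 in broad origins.

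The highest number of early calls was 3. The longest origins with this number were in PLEC (chr8:143936101-143947000), which encodes the cytoskeletal linker plectin, and MUC5B (chr11:1225601-1235300), a gel-forming mucin gene, followed by the IER2 and STX10 origin (chr19:13149601-13156300), the WNT11 origin (chr11:76205601-76210900) and the IRX5 origin (chr16:54928401-54933600). The 3 early calls covered 30.3% of the PLEC origin, 10.3% of MUC5B, 17.9% of IER2 and STX10, 35.9% of WNT11 and 46.2% of IRX5. PLEC and MUC5B lay inside the gene without a gene start and had CpG ratios of 0.365 and 0.366. The other three covered gene starts and had ratios of 0.692 to 0.879. WNT11 encodes a secreted signalling protein and IRX5 a homeobox transcription factor.

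No early call was found in 273 broad origins. They had a mean CpG ratio of 0.371, a mean efficiency of 0.825 and a coding start in 17.6%, against 0.567, 0.873 and 61.3% in the 473 with an early call. Their lengths did not separate them, with medians of 4000 and 3800 bp. The 5 longest with neither an early call nor a gene start were all inside coding genes and 9300 to 14200 bp long. They were in JAG2, a Notch ligand gene (chr14:105142901-105157100), BOP1 and SCX (chr8:144267201-144278400), MEGF6 (chr1:3489301-3500100), the fibroblast growth factor receptor gene FGFR3 (chr4:1797201-1807500) and the lipid transporter gene ABCA2 (chr9:137017501-137026800). Their efficiencies lay between 0.812 and 0.834, and 2-4 kb SNS-seq peaks covered 96.0 to 100% of each.

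**Figure D3:**
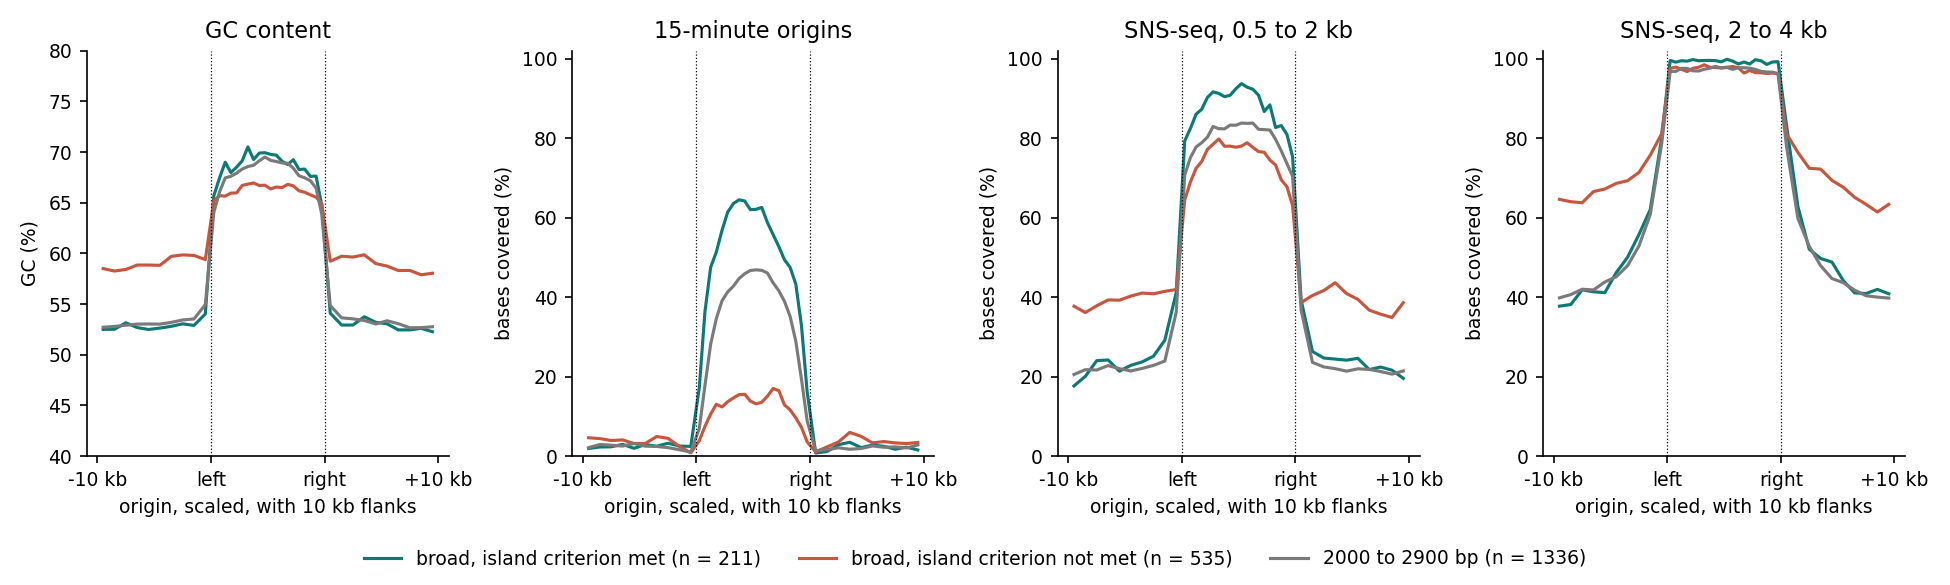
Mean GC content and mean percentage of bases covered by 15-minute origins and by the 2 SNS-seq fractions, along origins scaled to the same length with 10 kb of flank on each side in 1 kb steps. Early cover in the centre reaches 62.0% in broad origins that met the CpG island criterion and 13.5% in those that did not; 2-4 kb SNS-seq cover averages 99.5% and 97.8% there and the flanks of the latter keep 64.0% at 10 kb.

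SNS-seq, which did not enter the choice of the origins, covered nearly all of them. A peak of either fraction overlapped 744 of 746 (99.7%) [99.0 to 100%], against 91.6% of all 3-hour origins and 99.8% of origins of 2000 to 2900 bp. Peaks of the 2-4 kb fraction covered a mean of 97.9% of the bases of a broad origin and peaks of the 0.5-2 kb fraction 78.0%. After the fractions were joined, 560 broad origins overlapped 1 interval, 139 overlapped 2, 27 overlapped 3 and 18 overlapped 4 to 6. A single 2-4 kb peak held the whole origin in 544 cases (72.9%), against 72.1% of all 3-hour origins. A single 0.5-2 kb peak did so in 55 (7.37%). Longer intervals are less easily held in 1 peak. Without a share over shorter origins, this last value does not set broad origins apart. The 2-4 kb peak with the largest overlap had a median length of 6414 bp and reached a median of 734 bp past each side.

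The flanks place these figures in context. In the outermost kilobase of the 10 kb flanks, 2-4 kb peaks still covered 64.0% of bases beside origins that did not meet the CpG island criterion and 39.3% beside those that did. The flanks of the former also had a GC content of 58.3% and 26.3% of their bases in other 3-hour origins, against 52.4% and 9.36%. Cover by 0.5-2 kb peaks averaged 87.4 ± 13.5% in broad origins that met the criterion and 74.2 ± 20.99% in those that did not. In origins of 2000 to 2900 bp it averaged 89.8 ± 13.5% and 67.8 ± 28.0%.

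The origins split over the most SNS-seq intervals did not meet the CpG island criterion, like 535 of all 746 broad origins. The origin in KCTD17 (chr22:37060201-37063800) overlapped 6. Those in ADAM11 (chr17:44773101-44778100), at the start of the transcription factor gene ZBTB7B (chr1:154999401-155004300), in an intron of PLCH2 (chr1:2434001-2437400) and at chr9:136603501-136611400 each overlapped 5, as did a shorter origin in CHD5 and KCNAB2 (chr1:6099701-6102800), which is named because it tied. Their CpG ratios lay between 0.224 and 0.539, beside a median of 0.456 over all broad origins. Peaks of the 0.5-2 kb fraction covered 0 to 52.3% of them. Only the ZBTB7B origin held a coding gene start.

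Gene annotation placed most broad origins in or at coding genes. A coding gene start lay inside 338 (45.3%) [41.7 to 49.0%], against 31.8% of all 3-hour origins and 47.7% [44.97 to 50.4%] of those of 2000 to 2900 bp. A further 292 lay inside a coding gene and touched an exon, 33 were wholly intronic, 34 overlapped non-coding genes alone and 49 overlapped no annotated gene. These last counts describe the broad origins only. Longer intervals meet more genes and exons, so the counts do not show a difference from other origins. Because some held several, the 338 origins contained 392 coding gene starts, 1.96% of the 20046 annotated. Of these starts, 240 (61.2%) were themselves inside a 15-minute origin, against 71.8% of the 721 starts inside origins of 2000 to 2900 bp. A whole coding gene fitted inside 43 broad origins (5.76%), against 0.310% of all 3-hour origins and 1.05% of those of 2000 to 2900 bp. Of the 211 origins that met the CpG island criterion, 76.8% held a coding start, and of the other 535, 32.9% did.

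The 10 longest origins illustrate this mixture. The longest, 18200 bp (chr4:1746001-1764200), overlapped no annotated gene, and TACC3 ended 0.83 kb before it. It had an efficiency of 0.838, a CpG ratio of 0.315 and 2 early calls that covered 5.50% of it, and it overlapped 9 peaks of 0.5-2 kb and 3 of 2-4 kb. Next, at 15900 bp, came an origin over parts of the NMDA receptor gene GRIN1 and of ANAPC2, a subunit gene of the anaphase-promoting complex, with the starts of LRRC26, TMEM210 and an unnamed coding gene (chr9:137160001-137175900). Its efficiency was 0.871, its CpG ratio 0.504 and its early cover 29.6%, the highest of the 10. The other origin of 15900 bp held SLC25A22, a mitochondrial glutamate carrier gene, and CEND1 and PANO1 whole, and part of PIDD1 (chr11:786701-802600). It had an efficiency of 0.829, and 1 early call covered 8.81% of it while 1 peak of the 2-4 kb fraction covered it whole.

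**Figure D4:**
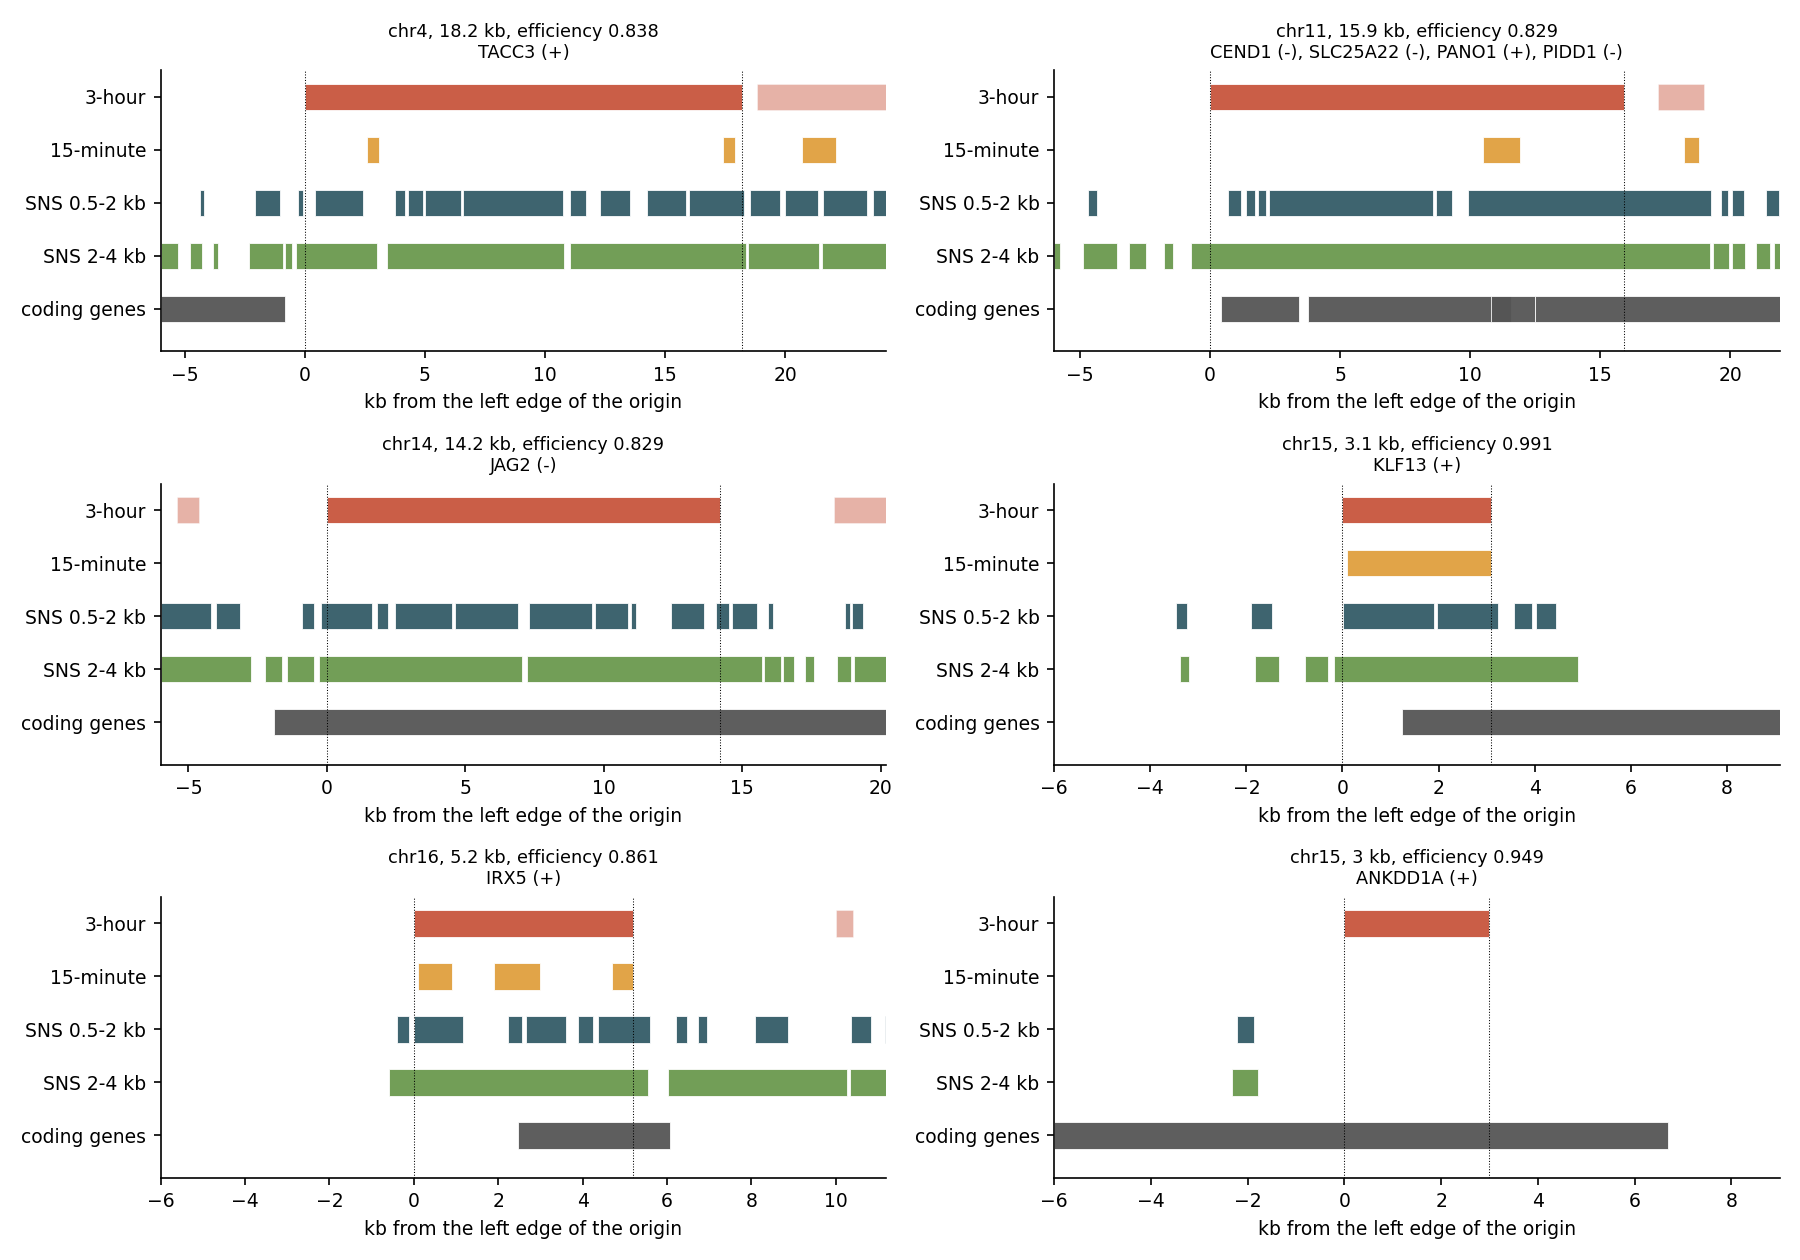
Maps of 6 broad origins with 6 kb on each side, in kb from the left edge of the origin (dotted lines mark its edges); rows show 3-hour origins (pale where neighbouring), 15-minute origins, SNS-seq peaks of both fractions and coding genes with their strand. The long origins on chromosomes 4, 11 and 14 hold 2, 1 and 0 early calls under near-complete 2-4 kb cover, the KLF13 origin is called almost whole at 15 minutes, IRX5 holds 3 early calls and the ANKDD1A tract holds no peak.

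The remaining 7 were JAG2 (14200 bp), PLCH2 (13400 bp, chr1:2491901-2505300), CRIP2 with MTA1 (13300 bp, chr14:105462901-105476200), AATK (11800 bp, chr17:81117701-81129500), HGFAC with RGS12 (11700 bp, chr4:3438401-3450100), EXD3 (11400 bp, chr9:137310601-137322000) and VWA1 (11200 bp, chr1:1430601-1441800). The BOP1 and SCX origin shared this last length. MTA1 encodes a subunit of a chromatin-remodelling deacetylase complex and HGFAC a protease that activates hepatocyte growth factor. Their efficiencies lay between 0.823 and 0.853, their CpG ratios between 0.319 and 0.445, and early calls covered 0 to 16.2% of each. CRIP2, HGFAC and VWA1 held a coding gene start. All 10 lay within 5 Mb of a chromosome end and none met the CpG island criterion.

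The most coding starts in 1 broad origin was 3, found in 7 origins, of which the 5 longest are named. None of these 5 met the CpG island criterion, nor did 535 of all 746 broad origins. Longer intervals also have room for more starts. After the GRIN1 and SLC25A22 origins, the longest were one over INS and IGF2, the insulin and insulin-like growth factor genes, their read-through transcript and part of the tyrosine hydroxylase gene TH (chr11:2157501-2168500), one with CRIP1 and TEDC1 (chr14:105485201-105493000) and one with CYSRT1, RNF224 and the phosphate transporter gene SLC34A3 (chr9:137224901-137231200). The INS and IGF2 origin was 11000 bp long with an efficiency of 0.841 and a CpG ratio of 0.293, and had no early call. The CYSRT1 origin had none either, with a ratio of 0.294. In the CRIP1 origin, with a ratio of 0.523, 2 early calls covered 35.9%. Overlapping genes and read-through records share starts closely, so these counts depend on the annotation.

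The 5 origins of highest efficiency were short among broad origins, CpG-rich and at the starts of regulatory genes. The 5 highest efficiencies were 0.991 at KLF13 (chr15:31325601-31328700), 0.970 at FOXC1 (chr6:1609001-1612000), 0.967 at ZIC2 (chr13:99979501-99982800), 0.964 at CPEB2 (chr4:15001601-15005200) and 0.963 at NFATC1 (chr18:79393801-79396900). KLF13, FOXC1, ZIC2 and NFATC1 encode transcription factors and CPEB2 an RNA-binding regulator of translation. They measured 3000 to 3600 bp, had CpG ratios of 0.832 to 0.931 and were 77.4 to 96.8% covered by early calls. The 5 lowest, at 0.8 to 0.801, were in the lipid kinase gene PIP5K1C (chr19:3636301-3639300), at chr10:132443801-132448600, in the junctophilin gene JPH3 (chr16:87689201-87692700), at chr16:88441101-88445700 and in FBRSL1 (chr12:132547501-132552100). They had CpG ratios of 0.244 to 0.464, no early call and no coding gene start, and all overlapped SNS-seq peaks.

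Gene lists were counted by their starts. Of 209 developmental transcription factor genes outside HOX, 13 (6.22%) had their start in a broad origin, beside 1.96% of all coding genes, and 85 had it in a 3-hour origin of any length. The 5 in the longest origins were IRX5, SOX18 (chr20:64047101-64052200), BHLHE23 (chr20:63005001-63009900), ASCL2 (chr11:2268601-2272700) and IRX3 (chr16:54284101-54287700), all of which met the CpG island criterion and held an early call. Their efficiencies were 0.861, 0.823, 0.869, 0.881 and 0.912. Of 39 HOX genes, 1 (2.56%) started in a broad origin, near the share of all coding genes. It was HOXA5 (chr7:27142101-27145700), with 3600 bp, an efficiency of 0.818, a CpG ratio of 0.739, no early call and 44.6% cover by 0.5-2 kb peaks. Of 508 ZNF genes, 4 (0.787%) did: ZNF503, ZNF423, ZNF579 and ZNF467, each with 1 or 2 early calls. Of 17 mucin genes, MUC6 did (chr11:1033301-1038100), with a CpG ratio of 0.379 and no early call.

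None of the starts of 60 DNA replication genes, 87 cytosolic ribosomal protein genes, 17 glycolysis genes, 53 clustered protocadherins, 69 replication-dependent histones or 400 olfactory receptors lay in a broad origin. For the first 3 of these lists, 37, 34 and 8 starts lay in a 3-hour origin of any length, and these calls were all shorter than 3000 bp. For histones, protocadherins and olfactory receptors only 3, 1 and 0 starts lay in any 3-hour origin. Over all coding genes 1.96% of starts lay in a broad origin, as did 4.60% of the starts inside any 3-hour origin. With shares this low, a count of 0 does not set a short list apart. The lists describe counts only, and nothing was tested on them.

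The broad origins were concentrated near chromosome ends. Within 5 Mb of an end of the assembled chromosome lay 519 (69.6%) [66.1 to 72.9%], against 27.7% of all 3-hour origins and 43.3% [40.6 to 46.0%] of those of 2000 to 2900 bp. Within 1 Mb lay 114 (15.3%), against 6.27% of all. Put the other way, 7.83% of the 6626 origins within 5 Mb of an end were broad, and 1.31% of the 17279 farther away. They lay on all 22 autosomes, and 0 of 746 were on X or Y, which together held 297 of the 23905 origins. Near an end and far from it the broad origins differed in kind: 16.4% of the 519 and 55.5% of the 227 met the CpG island criterion, and 37.0% and 64.3% held a coding start. Within the CpG classes a difference in position remained beside the shorter origins, with 81.1% of CpG-poor broad origins within 5 Mb against 60.4% of CpG-poor origins of 2000 to 2900 bp, and 40.3% against 28.8% for those that met the criterion.

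The ends did not share them evenly. The long arm end of chromosome 9 held 61, the short arm end of chromosome 1 held 60 and that of chromosome 11 held 46, followed by 19p with 43, 8q and 20q with 37 each, 17q with 36 and 14q with 33. These 8 ends held 353 of the 746 (47.3%), and 19 ends held none, of which 7 held no 3-hour origin of any length and 12 held shorter ones only. The share of origins that were broad also differed between ends, and the cause was not tested. It was 18.02% of 333 origins at 1p, against 7.34% of 586 at 19p and 6 of 321 at 16p, which is named after its value was seen. In 1 run of 92 origins no more than 100 kb apart on chromosome 1 (chr1:903901-1632400), 31 were broad and filled 23.2% of 0.729 Mb. On chromosome 9 a run of 231 origins (chr9:135906601-138023400) held 52, which filled 13.2% of 2.12 Mb.

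**Figure D5:**
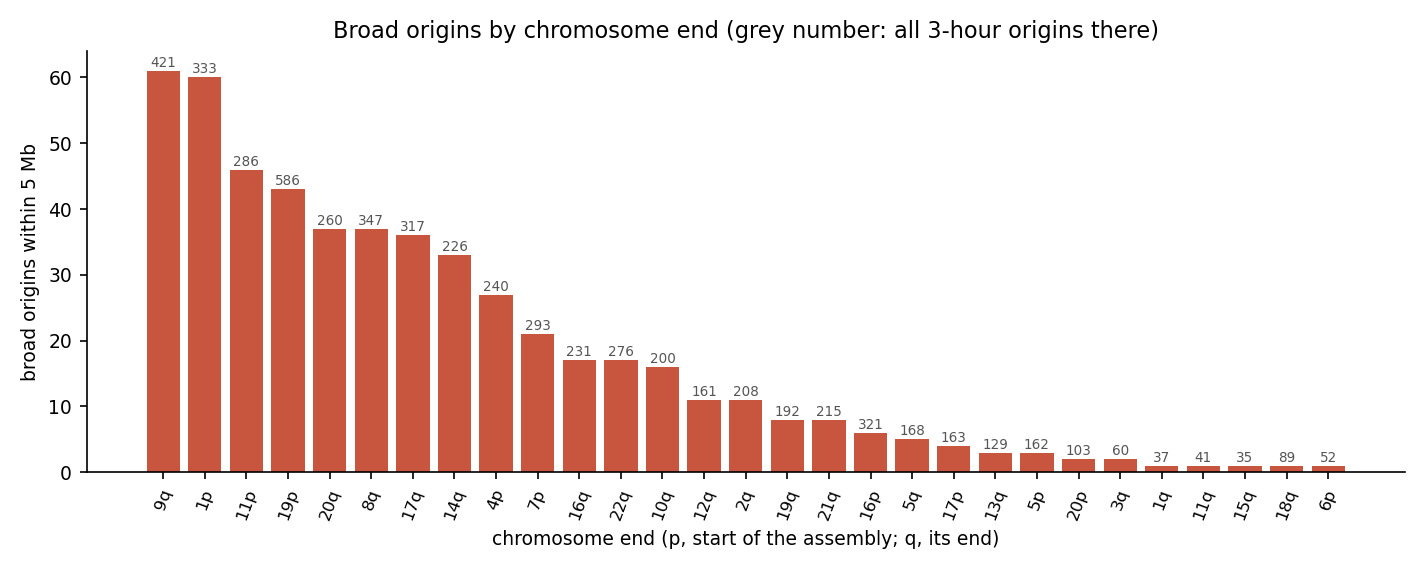
Bars give the number of broad origins within 5 Mb of each chromosome end that has at least 1, and the grey number above a bar gives all 3-hour origins there. The ends 9q, 1p and 11p lead with 61, 60 and 46, while 16p holds 6 among 321.

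The number of neighbouring origins depended on position. A mean of 18.9 ± 9.87 other 3-hour origins lay within 100 kb (SD across 746), against 12.9 ± 10.2 for origins of 2000 to 2900 bp. Within 5 Mb of a chromosome end the means were 23.1 ± 8.001 (n = 519) for broad and 20.1 ± 9.60 (n = 578) for 2000 to 2900 bp origins, and farther away 9.28 ± 6.34 (n = 227) and 7.38 ± 6.44 (n = 758). The difference between the lengths was thus smaller within each position class than over all positions, and smaller than the SD across origins. Broad origins that did not meet the CpG island criterion had 21.6 neighbours within 100 kb and those that met it 12.2. The caller joined windows up to 500 bp apart, and the part of this joining in the long intervals of dense regions was not tested.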

How the data were processed

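The 3-hour and 15-minute ini-seq 2 lists and both SNS-seq lists were used as deposited, in hg38. Per the study's methods, reads were aligned with bowtie2. The authors took 100 bp windows whose log2(HL/LL) reached 2, merged neighbours up to 500 bp apart and required an efficiency of 0.8. The deposited efficiency is a fraction from 0.8 to 1 although its column is headed as a score, and the deposited 15-minute list holds a Z-score. SNS-seq peaks were called by the authors with MACS2 against EJ30 genomic DNA, which is not analysed here. How many replicates the 15-minute list holds is not given in the sources used here.

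Members and gene lists were chosen with earlier results of these data known. Length is end minus start plus 1, and overlap means 1 bp or more. GC, CpG ratio, repeats and motifs were read from hg38, genes from GENCODE 44, with Python 3.11.15, pandas 2.3.3, pysam 0.24.0 and scipy 1.17.1, and the code was tested on simulated data. Origins named are the 10 longest, the 5 highest and 5 lowest in efficiency, the 5 with most 15-minute origins, SNS-seq peaks or coding starts, the 5 longest without early calls and gene starts or without SNS-seq peaks, HOX origins and up to 5 per gene list. Alternatives changed the length limit, overlap rule, fraction, gene-start definition, class limits and comparison group.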

Additional observations from a re-analysis of the deposited data

How the results depend on the processing

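Replicates could not be paired between conditions because each condition is 1 list. With length limits of 2000, 4000 and 5000 bp there were 2082, 361 and 185 origins, of which 25.6%, 6.37% and 2.70% were in the high efficiency class and 6.92%, 15.5% and 18.9% held at least 2 early calls. SNS-seq overlap was 100% at 4000 and 5000 bp and with peaks within 5 kb, and the share with a coding start was 41.1% at 5000 bp. Counting only the central 1000 bp gave 43.6% with an early call, 0.402% with 2 or more, 13.5% with a coding start and 35.9% for the CpG island criterion; its stricter limits gave 22.6%. SNS-seq peaks wholly inside were found in 7.51% of origins, 0.123 per origin, against 1.34 overlapping, or 0.326 per kb. SNS-seq cover was 78.0% for the 0.5-2 kb fraction and for bases covered in both. Starts of all coding transcripts gave 59.5% and genes of any type 55.4%. The high class held 7.91% when classes were set among origins of 1000 bp or more and 4.96% with classes of equal width. Within 5 Mb in place of 1 Mb of an end lay 69.6%.

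The comparison with origins of 2000 to 2900 bp turned direction for coding starts: a difference of -2.37 percentage points became 13.97 against all origins under 3000 bp, and 5.42, 0.742 and 4.22 within GC bands of 60 to 65, 65 to 70 and 70 to 75%. The GC difference of -0.876 points became -0.1075 against all origins under 3000 bp. It was 0.146 in the lowest band, but the bands are set on GC itself and so limit this difference in advance. The SNS-seq cover difference of 0.580 points became 12.4 against all shorter origins and -0.0406 in the highest band. The cause was not tested. Of 67 alternatives, 32 stayed within the counting interval or SD of the value reported.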
